A study of Caenorhabditis elegans with 24 samples.

Results

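The intestine of Pol I-AID animals was followed over 24 h of auxin, with 4 libraries after 24 h on 1 mM auxin and 4 taken before auxin (0 mM, 0 h), which are 8 of the 24 libraries of the study, chosen by their strain and time labels. All 8 came from animals with qzIs15, which fuses a degron and GFP to the RNA polymerase I subunit RPOA-2 under the rpoa-2 promoter, and ieSi57, which expresses TIR1::mRuby from the eft-3 promoter, active in most tissues, together with Cbr-unc-119(+). Strain DCW180, outcrossed 1 time, gave replicate 1 and DCW447, outcrossed 3 times, gave replicates 2 to 4, all described as independent biological replicates. Fed animals were grown for 72 h at 20 °C to the first day of adulthood, then moved to auxin plates, and each library pooled intestines dissected from several of them. The 24 h animals were therefore a day older than the 0 h animals, so within this comparison the loss of RPOA-2, auxin itself and a day of adult life cannot be told apart. TIR1 animals, which carry ieSi57 and unc-119(ed3) but no degron, were sampled at the same times, and their change is set beside that of Pol I-AID for part of the genes. They too came from 2 strains, one outcrossed 1 time for replicate 1 and another outcrossed 3 times for replicates 2 to 4.

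RNA polymerase I transcribes the ribosomal RNA precursor in the nucleolus, and RPOA-2 is its second largest subunit. In the degron system, auxin lets the plant F-box protein TIR1 bind the degron, and the tagged protein is ubiquitylated and destroyed. The worm intestine is a digestive, storage and detoxifying tissue that secretes yolk lipoproteins and digestive proteases in bulk, and it therefore carries a large endoplasmic reticulum (ER). Because the degron acts on protein, the mRNA of rpoa-2 does not show whether depletion worked. That mRNA was near the limit of detection, at 0.731, 1.33, 1.24 and 0.943 CPM (read counts scaled to library size) at 24 h and 1.32, 0.359, 0.827 and 0.904 CPM at 0 h in replicates 1 to 4 (log2 fold change 0.33 ± 0.56, SE, FDR = 0.727). The 2 times overlapped.

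The 24 h libraries held 12.0 to 23.0 M read counts and the 0 h libraries 18.8 to 29.5 M. Of these, the 6 vitellogenin (yolk protein) genes took 77.5% to 79.9% at 24 h and 69.4% to 72.9% at 0 h (exact permutation p = 0.0286, the smallest that 4 against 4 allows, adjusted p = 0.0714 over 10 measures). The vitellogenin share was also 7.11 percentage points higher at 24 h in TIR1. All other genes shared 2.70 to 4.62 M counts at 24 h and 5.08 to 9.01 M at 0 h. Across genes, log2 levels of 2 libraries correlated at 0.931 to 0.953 among 24 h libraries, at 0.932 to 0.948 among 0 h libraries and at 0.848 to 0.883 between the times. In one 0 h library, replicate 4, germline and oocyte markers reached 795 ppm of the counts outside vitellogenin genes, against 26.8 to 35.1 in the other 0 h libraries. At 24 h replicate 3 had 214 and the others 13.3 to 30.7. Another 0 h library, replicate 3, stood above the rest in lysozyme, saposin-like and ribosomal protein genes.

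Of 6903 genes with enough counts to be tested, 748 (10.8%) were higher and 451 (6.53%) lower at 24 h than at 0 h, by edgeR's quasi-likelihood test at a Benjamini-Hochberg FDR under 0.05, with a 2-fold change or more required. These are the genes described below as having risen or fallen. The median change among called genes was 1.98 on the log2 scale for those that rose and -1.55 for those that fell, and 368 and 133 of them changed at least 4-fold. The 4 libraries of one time lay wholly above or below those of the other for 698 of the 748 and 377 of the 451, where 15.8% of all tested genes were wholly higher and 13% wholly lower. Genes that rose made up 14.8% to 15.9% of the counts outside vitellogenin genes at 24 h and 2.37% to 3.10% at 0 h, a description that follows from how they were chosen. Those that fell made up 7.71% to 8.72% at 24 h and 24.5% to 25.9% at 0 h. The median over all tested genes was -0.07, and scaling by total counts in place of the TMM method moved it to -0.32 and turned the split of calls from 748 higher and 451 lower (62.4% higher) into 584 and 747 (43.9% higher). In bulk tissue fewer cells of a type and less RNA per cell cannot be told apart.

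**Figure D1:**
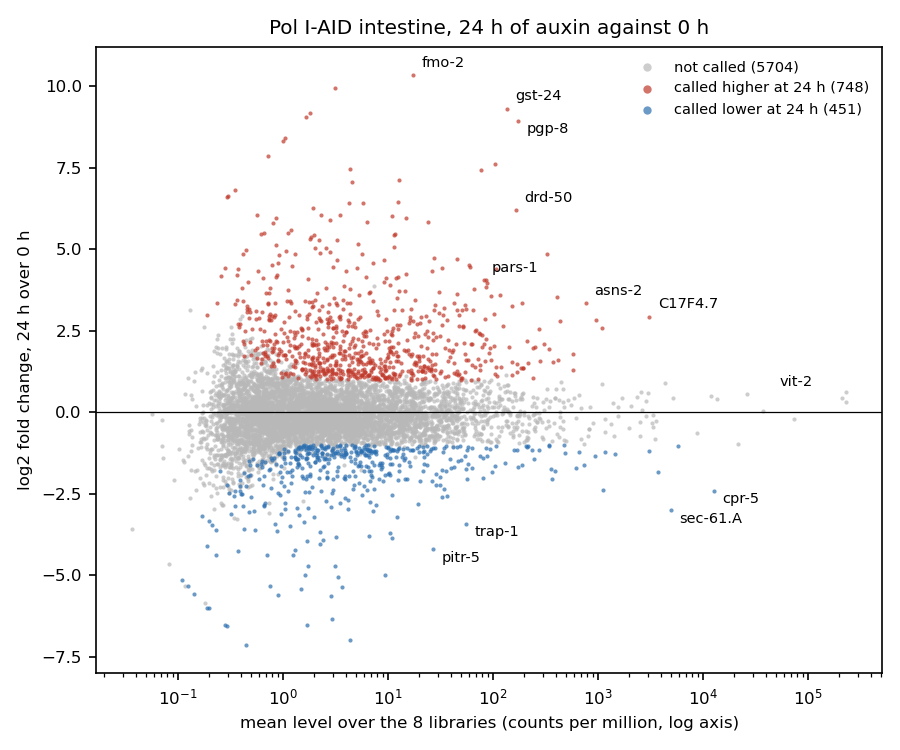
Each point is 1 of the 6903 tested genes, with its mean level over the 8 Pol I-AID libraries in CPM on a log axis against its log2 fold change at 24 h over 0 h. Red points were called higher (748) and blue points lower (451). The translocon gene sec-61.A and the protease gene cpr-5 lie far to the right among the blue points, as abundant genes with falls of over 4-fold.

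Among the gene lists examined with at least 10 tested members, the largest share of called members was found for the machinery that takes new proteins into the ER and folds them, and it fell. The gene sec-61.A encodes the channel of the translocon and is not counted in that list. It had 921, 1173, 1209 and 1083 CPM at 24 h, against 10010, 9692, 7453 and 8238 CPM at 0 h in replicates 1 to 4 (log2 fold change -3.01 ± 0.16, SE, FDR = 4.56e-13). The highest 24 h library was far below the lowest 0 h library. In TIR1 sec-61.A also fell, at -1.15, and the fall was greater in Pol I-AID (difference, Pol I-AID minus TIR1, -1.86 ± 0.20 on the log2 scale, FDR = 1.82e-06). The small translocon subunits, examined after their values were seen, fell too, sec-61.B at -3.95 ± 0.68 and sec-61.G at -2.85 ± 0.52, though sec-61.B was sparse, with 0.113 to 0.318 CPM at 24 h and 1.43 to 6.59 CPM at 0 h.

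Of 27 tested ER chaperone, translocon-associated and disulphide isomerase genes, 17 fell and none rose, where 6.53% of all genes fell. Their median was -1.63, against -0.07 over all genes, and in 22 of the 27 every 24 h library was below every 0 h library (13% of all genes). Summed over the list, the level was 1973 to 2286 CPM at 24 h and 5086 to 7432 CPM at 0 h. The number that fell was 17 to 22 under every alternative processing tried. In TIR1, 5 of the 27 fell (3.16% of all genes), with a median of -0.60. For 8 of the 27 the difference between strains was itself called, each time lower in Pol I-AID (2.38% of all genes).

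The translocon-associated protein gene trap-1 had 9.32, 11.9, 8.88 and 7.92 CPM at 24 h, against 115, 112, 94.6 and 85.6 CPM at 0 h (-3.42 ± 0.21, FDR = 9.22e-12). Its partners trap-3, trap-4 and trap-2 fell with it, as did tram-1, another translocon-associated protein (-2.11 ± 0.26). The disulphide isomerase gene pdi-2, which also serves in collagen prolyl hydroxylation, had 325, 386, 361 and 352 CPM at 24 h and 2449, 1860, 1547 and 1659 CPM at 0 h (-2.40 ± 0.13, FDR = 6.57e-13). Among chaperones, the BiP genes hsp-3 and hsp-4 both fell by 2.03 on the log2 scale, the calreticulin gene crt-1 by 2.06 and the GRP94 gene enpl-1 by 1.63. These 4 genes were added after their values were seen. In hsp-4, the BiP gene that is induced in the unfolded protein response, TIR1 changed as much, at -2.09, with no detected difference between strains (0.05 ± 0.49, FDR = 0.974).

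The sensors and factors of the unfolded protein response did not all move with these genes. The sensor kinase gene pek-1 fell, with 5.18, 6.36, 5.09 and 6.42 CPM at 24 h and 19.2, 28.9, 16.7 and 14.9 CPM at 0 h (-1.79 ± 0.22, FDR = 5.10e-07). The transcription factor gene xbp-1 passed the FDR but not the 2-fold limit, at -0.72 ± 0.14, and the gene of the splicing sensor ire-1 was at -0.60 ± 0.25 (FDR = 0.0745). The ER-bound transcription factor gene let-607, a relative of CREBH, had 11.5, 10.8, 9.84 and 13.6 CPM at 24 h and 75.2, 61.6, 46.3 and 48.0 CPM at 0 h (-2.34 ± 0.23), and TIR1 showed -2.74. The ER calcium-binding calumenin gene calu-1 (-2.23 ± 0.13) and fitm-2, which acts in lipid droplet formation at the ER (-2.61 ± 0.17), fell more in Pol I-AID than in TIR1, each with a difference of -1.63 (FDR = 1.82e-06 for calu-1 and 5.82e-05 for fitm-2).

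**Figure D2:**
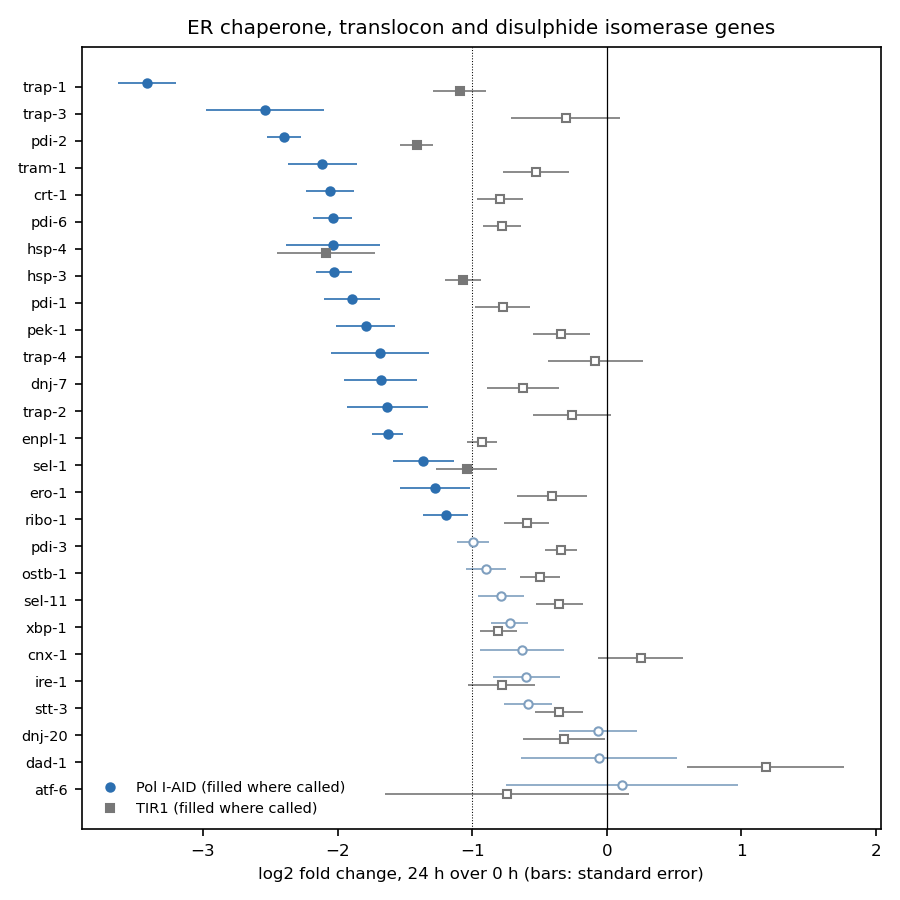
Log2 fold change at 24 h over 0 h for the 27 tested ER chaperone, translocon-associated and disulphide isomerase genes, with circles for Pol I-AID and squares below them for TIR1, filled where called, and bars for the SE. Pol I-AID values lie below 0 for 26 of the 27, and 17 are called, while 5 are called in TIR1.

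Genes of digestive and lysosomal proteases fell as well, several of them abundant mRNAs of this tissue. The cathepsin B-like gene cpr-5 had 4309, 3573, 4115 and 4214 CPM at 24 h, against 24080, 21037, 20109 and 20674 CPM at 0 h (-2.41 ± 0.12, FDR = 4.16e-13). TIR1 stood at -0.76, short of 2-fold, and the difference was -1.65 ± 0.16 (FDR = 3.43e-07). A second cathepsin B-like gene, cpr-1, had 1712, 1329, 1748 and 1800 CPM at 24 h and 6025, 6698, 5758 and 5169 CPM at 0 h (-1.84 ± 0.16), again more than in TIR1 (difference -1.47 ± 0.22, FDR = 0.000129). The aspartic protease gene asp-1 (-1.23 ± 0.14) and the neprilysin-like metallopeptidase gene nep-17 (-1.29 ± 0.12) fell without overlap between the times.

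Within the cathepsin and aspartic protease list, 6 of 21 tested genes fell and 3 rose, where 6.53% of all genes fell and 10.8% rose. The median was -0.51, and the summed level was 59496 to 66536 CPM at 24 h and 93844 to 102818 CPM at 0 h. Members therefore did not move as a block. The aspartic protease gene asp-14 rose, with 548, 443, 467 and 524 CPM at 24 h and 110, 106, 110 and 139 CPM at 0 h (2.09 ± 0.15, FDR = 1.24e-10), and TIR1 rose by 1.95. The cathepsin gene cpr-3 was called higher (1.09 ± 0.33, FDR = 0.0125), but its times overlapped and it was at 0.75 (FDR = 0.0939) without replicate 4 at 24 h and at 0.98, short of 2-fold, without replicate 3 at 0 h. Of 18 tested subunits of the V-ATPase, the proton pump that acidifies lysosomes, 4 fell and none rose, with a median of -0.87. The most abundant of the 4, vha-13, had 96.5, 94.0, 106 and 98.2 CPM at 24 h and 214, 252, 189 and 220 CPM at 0 h (-1.15 ± 0.11). Their number moved between 2 and 14 with the processing, and 7 fell without replicate 4 at 0 h. Of 33 proteasome subunit genes 5 fell and none rose (median -0.61), among them pas-3 and rpn-10.

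In contrast to the ER genes, a part of the translation machinery rose. Other parts did not, since 3 of 37 tested translation factor genes rose (8.11%) and none fell. Of 45 mitochondrial ribosomal protein genes none rose and 1 fell. Of 31 tested aminoacyl-tRNA synthetase genes, whose products charge tRNAs with amino acids, 10 rose and none fell, where 10.8% of all genes rose. The list as a whole was not shifted, with a median of -0.05 and with 15 of the 31 genes above 0 and 16 below. Its summed level was 1165 to 1497 CPM at 24 h and 317 to 454 CPM at 0 h, and 8 to 11 members rose under every alternative. The prolyl-tRNA synthetase gene pars-1 had 155, 178, 149 and 139 CPM at 24 h, against 10.9, 8.56, 7.23 and 10.7 CPM at 0 h (4.06 ± 0.43, FDR = 5.38e-08). The seryl enzyme gene sars-1 had 366, 396, 335 and 292 CPM at 24 h and 52.8, 23.3, 23.5 and 36.4 CPM at 0 h (3.35 ± 0.40). Every 24 h library was above every 0 h library in both genes.

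TIR1 shared the rise of some of these genes and not of others. In pars-1 and sars-1, TIR1 rose as well, by 2.63 and 1.85 on the log2 scale, and the difference between strains missed the threshold (1.43 ± 0.55, FDR = 0.117 for pars-1 and 1.5 ± 0.52, FDR = 0.0807 for sars-1). The isoleucyl enzyme gene iars-1, named after its values were seen like the next 2, rose by 2.19 ± 0.32 in Pol I-AID and stood at -0.48 in TIR1, with a difference of 2.66 ± 0.43 (FDR = 0.000275). The threonyl enzyme gene tars-1 was at 1.98 against 0.12 (difference 1.86, FDR = 4.78e-05) and the leucyl enzyme gene lars-1 at 1.38 against -0.64 (difference 2.02, FDR = 0.000113). In all, 7 of the 31 synthetase genes had a called difference, each towards a higher change in Pol I-AID (3.51% of all genes). The asparagine synthetase gene asns-2 rose in both strains, with 1477, 1432, 1287 and 1475 CPM at 24 h and 142, 127, 154 and 132 CPM at 0 h in Pol I-AID (3.35 ± 0.45), and 2.92 in TIR1.

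Among ribosome biogenesis genes, 6 of 28 tested rose and none fell, where 10.8% of all genes rose and 6.53% fell, and the median was 0.55. The gene nog-1, which encodes a nucleolar GTPase needed to make the large ribosomal subunit, had 48.0, 33.4, 31.3 and 34.9 CPM at 24 h and 3.79, 5.78, 5.21 and 4.43 CPM at 0 h (2.94 ± 0.23, FDR = 3.46e-10). It stood at 0.23 in TIR1, and the difference was 2.71 ± 0.32 (FDR = 3.72e-06). The gene ncl-1, whose protein keeps nucleoli small, had 33.6, 33.8, 38.4 and 42.2 CPM at 24 h and 13.7, 14.6, 17.1 and 14.2 CPM at 0 h (1.31 ± 0.16), where TIR1 was at 0.00 (difference 1.31, FDR = 0.000549). The nucleolin gene nucl-1 was called higher with overlapping times (1.28 ± 0.39, FDR = 0.0150), and without replicate 4 at 24 h it was at 0.95 (FDR = 0.0868). It was at 1.11 (FDR = 0.0522) without replicate 3 at 0 h, and at 1.09 (FDR = 0.124) and 1.36 (FDR = 0.0612) without replicates 1 and 2 at every time. In contrast eif-6, an anti-association factor of the large subunit, rose in both strains (2.49 in Pol I-AID and 2.09 in TIR1). None of the 4 tested RNA polymerase I subunit genes was called.

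Few cytosolic ribosomal protein genes were called in Pol I-AID. Of 78 tested in Pol I-AID, 1 rose and none fell, where 10.8% of all genes rose and 6.53% fell. The median of -0.41 became 0.19 without replicate 3 at 0 h, in which the list summed to 5950 CPM against 2651 to 3528 CPM in the other 0 h libraries. The 24 h libraries had 2712 to 3584 CPM. In TIR1, 13 of the 78 rose and none fell, with a median of 1.08, where 6.55% of all genes rose and 3.16% fell. For 6 of the 78 the difference was called lower in Pol I-AID, where 2.38% of all genes had one (median difference over the 78, -1.52). This difference draws on the outlying Pol I-AID replicate 3 at 0 h and on TIR1 replicate 3 at 0 h, which held 3.18 M counts. The part of these 2 libraries in it was not tested. The 1 call, rpl-11.1, named after its value was seen, rests on 2 counts in all 0 h libraries together, with a ratio of 25.3 (95% counting interval 6.48 to 217), and was lost when any of 4 single libraries was left out.

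Genes that modify and export foreign or reactive compounds formed the widest group of rises. Of 45 tested UDP-glucuronosyltransferase genes 23 rose and 3 fell, of 51 cytochrome P450 genes 24 rose and 2 fell, and of 24 glutathione S-transferase genes 12 rose and 1 fell. Over all genes 10.8% rose and 6.53% fell. The medians of the 3 families were 1.2, 1.02 and 1.04. In TIR1, 16, 18 and 13 members of the same 3 families rose, where 6.55% of all genes did, and a difference between strains was called higher in Pol I-AID for 5, 5 and 2, where 3.51% of all genes had one. The summed level of the UDP-glucuronosyltransferase genes was 2711 to 3084 CPM at 24 h and 1118 to 1319 CPM at 0 h. Families of this kind hold close copies, and counting uniquely aligned reads can lower such genes, so single members are less certain than the family.

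The UDP-glucuronosyltransferase gene ugt-26 had 842, 850, 664 and 680 CPM at 24 h and a mean of 109 CPM at 0 h, with no overlap (2.79 ± 0.30), and ugt-25 had 20.7, 27.1, 21.7 and 17.5 CPM at 24 h and 0.345, 0.403, 0.306 and 0.271 CPM at 0 h (6.02 ± 0.49, FDR = 8.33e-10). Against this direction, ugt-15 had 1.16, 0, 0.565 and 0.566 CPM at 24 h and 20.7, 16, 17.1 and 18.9 CPM at 0 h (-5.0 ± 0.63). Among cytochrome P450 genes cyp-14A5 reached 16.8 to 33.9 CPM at 24 h, against at most 0.689 CPM at 0 h (7.11 ± 0.72). The glutathione S-transferase gene gst-4, a common reporter of the oxidative stress response, had 177, 156, 162 and 146 CPM at 24 h and 9.82, 5.92, 20.6 and 8.64 CPM at 0 h (3.83 ± 0.43), with 3.02 in TIR1. The flavin monooxygenase gene fmo-2 had 30.8 to 40.8 CPM at 24 h and 2 counts in all 0 h libraries together, a ratio of 1654 (95% counting interval 457 to 13662), and was called higher in TIR1 as well. The difference between strains missed the threshold (FDR = 0.973), with levels near 0 before auxin in both.

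Of 34 tested ABC transporter genes, which export lipids and toxins, 11 rose and none fell (median 0.25), against 3 that rose in TIR1. Over all genes 10.8% rose and 6.53% fell in Pol I-AID, and 6.55% rose in TIR1. The P-glycoprotein gene pgp-1 had 93.1, 101, 106 and 106 CPM at 24 h and 7.87, 16.3, 8.73 and 12.3 CPM at 0 h (3.17 ± 0.35), and rose by 2.58 in TIR1. Its relative pgp-3 had 58.6, 56.9, 51.4 and 53.8 CPM at 24 h and 6.14, 8.29, 6.65 and 5.47 CPM at 0 h (3.05 ± 0.21), more than in TIR1 (difference 1.76 ± 0.29, FDR = 0.000275). The gene skn-1, which encodes a transcription factor of detoxification genes, had 176, 169, 186 and 200 CPM at 24 h and 19.5, 25.6, 23.3 and 22.7 CPM at 0 h (3.01 ± 0.25, FDR = 1.07e-09). TIR1 rose by 2.42, and no difference was detected (0.58 ± 0.33, FDR = 0.325). The other antioxidant genes of that list were mostly not called, with 1 rise, skn-1, and 2 falls among 19 (2 rises without replicate 3 at 0 h).

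**Figure D3:**
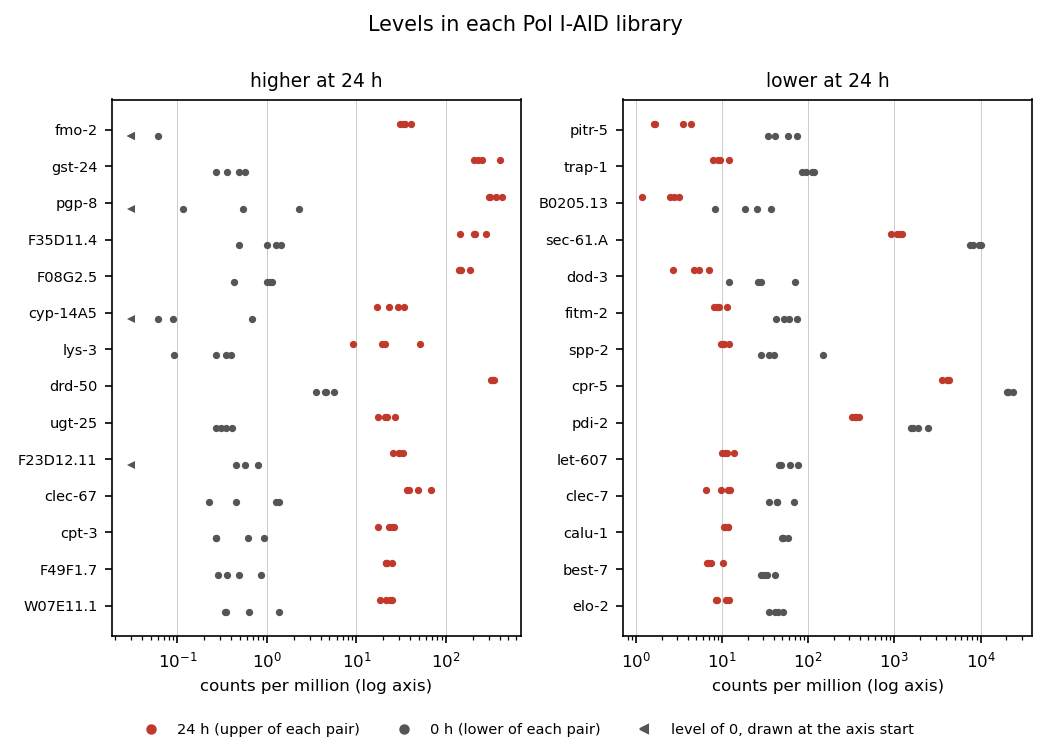
CPM on a log axis in each of the 8 Pol I-AID libraries for the 14 genes per direction with the largest fold change among called genes with a mean of at least 20 CPM in the higher time and no overlap, 24 h above 0 h within each pair. In each gene all 4 points of one time lie beyond all 4 of the other, and triangles at the left edge mark libraries with a level of 0.

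The F-box genes of the fbxa family, whose proteins recruit targets to a ubiquitin ligase, rose in number as well. Of 49 tested, 20 rose and none fell, with a median of 1.06, where 10.8% of all genes rose and 6.53% fell. In TIR1 2 of the 49 rose, where 6.55% of all genes did. A difference was called for 7 of the 49, all higher in Pol I-AID (3.51% of all genes). Most members were low, and with a filter of 10 counts in each of the 8 libraries 7 were called. The most abundant of those named, fbxa-74, had 161, 115, 130 and 101 CPM at 24 h and 28.5, 22, 20.1 and 25.1 CPM at 0 h (2.41 ± 0.23, FDR = 1.44e-08). TIR1 stood at 0.04, and the difference was 2.37 ± 0.32 (FDR = 2.57e-05). The next, fbxa-82, had 22, 18.7, 17.2 and 16.1 CPM at 24 h and 4.71, 2.56, 2.51 and 3.48 CPM at 0 h (2.49 ± 0.31).

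Genes of lipid and central carbon metabolism changed one by one. The lipase gene lipl-5, of a lysosomal lipase family, had 1573, 1743, 1696 and 2498 CPM at 24 h and 425, 161, 235 and 422 CPM at 0 h (2.60 ± 0.44), and rose by 2.13 in TIR1. The fatty acid desaturase gene fat-2 had 573, 515, 507 and 650 CPM at 24 h and 176, 184, 209 and 201 CPM at 0 h (1.54 ± 0.12), whereas the fatty acid elongase gene elo-2 fell, with 8.65, 8.48, 11.9 and 11 CPM at 24 h and 50.8, 35.3, 40.6 and 44.6 CPM at 0 h (-2.1 ± 0.16, FDR = 4.32e-10). In TIR1 elo-2 was at -0.27, and the difference was -1.82 ± 0.23 (FDR = 9.00e-06). The remaining lipid genes were mixed. Of 41 fatty acid oxidation and lipase genes 6 rose and 1 fell, and of 20 fatty acid synthesis and desaturation genes 1 rose and 3 fell. Over all genes 10.8% rose and 6.53% fell.

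Of 39 glycolysis, gluconeogenesis and citrate cycle genes 5 fell and 1 rose, where 6.53% of all genes fell and 10.8% rose. The succinyl-CoA ligase gene sucl-2 had 34.7 to 52.1 CPM at 24 h and 137 to 168 CPM at 0 h, with no overlap (-1.83 ± 0.17, FDR = 1.17e-08), with -0.12 in TIR1 and a difference of -1.71 ± 0.24 (FDR = 4.83e-05). The isocitrate dehydrogenase gene idh-1 (-1.70 ± 0.14) and the aconitase gene aco-1 (-1.33 ± 0.13) fell beside it, and aco-1 also differed from TIR1 (difference -1.14, FDR = 0.000249). The 60 tested respiratory chain and ATP synthase genes leaned lower, with a median of -0.71, but 4 fell and 1 rose at 2-fold or more, a share of falls close to the 6.53% over all genes. Without replicate 3 at 0 h the median was -0.46 and 2 fell, and with total counts 13 fell. Among them atp-2, the beta subunit of the ATP synthase, had 128, 127, 149 and 134 CPM at 24 h and 273, 339, 238 and 260 CPM at 0 h (-1.04 ± 0.12). Without replicate 2 at 0 h it was at -0.93, short of 2-fold.

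Several genes of phosphocholine and phosphatidylcholine synthesis fell. The choline kinase gene ckb-2 had 0.122, 0.106, 0.396 and 0 CPM at 24 h and 12.7, 6.55, 4.75 and 4.93 CPM at 0 h (-5.35 ± 0.51), and fell in TIR1 as well, at -3.26. The gene pcyt-1, whose enzyme makes CDP-choline, had 2.68, 2.23, 3.34 and 1.98 CPM at 24 h and 12.7, 7.71, 11.5 and 12.3 CPM at 0 h (-2.1 ± 0.20), where TIR1 stood at 0.40 and the difference was -2.51 ± 0.28 (FDR = 1.93e-06). The gene of the last step, cept-1, fell at -1.48 ± 0.26, against 0.54 in TIR1 (difference -2.02, FDR = 0.000775), and the phosphoethanolamine methyltransferase gene pmt-1 at -1.12 ± 0.13. In the same list of 20 genes the cystathionine gamma-lyase gene cth-1 rose, with 269, 293, 274 and 273 CPM at 24 h and 40.1, 27.5, 22.7 and 25.1 CPM at 0 h (3.27 ± 0.49), and rose by 3.77 in TIR1. Together 4 of the 20 fell and 2 rose, where 6.53% of all genes fell and 10.8% rose.

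Iron and heme genes moved in both directions, with 2 of 13 rising and 4 falling, where 10.8% of all genes rose and 6.53% fell. The ferritin gene ftn-1, which stores iron, had 67.4 to 117 CPM at 24 h and 6.50 to 15.9 CPM at 0 h (3.15 ± 0.27, FDR = 2.28e-09), more than in TIR1 (1.28, difference 1.87 ± 0.36, FDR = 0.00164). The heme-responsive gene hrg-7 had 11.4, 10.8, 13.3 and 15.5 CPM at 24 h and 58.9, 50.5, 53.2 and 40.1 CPM at 0 h (-1.99 ± 0.17), and the ferroportin-like iron exporter gene fpn-1.2 fell at -1.38 ± 0.29. In nutrient signalling, 6 of 28 insulin, mTOR and AMPK genes rose (4 without replicate 3 at 0 h) and 1 fell. They included mxl-3, a repressor of lipase genes, with 32.2, 25.7, 32.1 and 29.1 CPM at 24 h and 7.41, 4.80, 7.41 and 4.34 CPM at 0 h (2.31 ± 0.27), and akt-1, a kinase of insulin signalling (1.31 ± 0.23). Of 135 nuclear hormone receptor genes 15 rose and 8 fell, close to the shares over all genes.

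Immune effector families moved in both directions. Of 67 tested C-type lectin genes 18 rose and 9 fell, where 10.8% of all genes rose and 6.53% fell. Without replicate 4 at 0 h 17 rose and 6 fell. The gene clec-3 had 168, 161, 143 and 179 CPM at 24 h and 9.82, 8.88, 7.87 and 12.9 CPM at 0 h (4.05 ± 0.22, FDR = 8.20e-13). Among 27 lysozyme and saposin-like genes 3 rose and 7 fell. The lysozyme genes lys-3 (6.44 ± 1.3), lys-2 (1.92 ± 0.20) and lys-1 (1.15 ± 0.15) rose, and lys-2 had 544, 540, 547 and 562 CPM at 24 h and 189, 105, 151 and 132 CPM at 0 h. The falls in this list rest in part on replicate 3 at 0 h. Its members summed to 10295 CPM there, against 4337 to 4611 CPM in the other 0 h libraries and 2682 to 4141 CPM at 24 h. Without that library 3 members fell in place of 7, and without replicate 3 at every time 1 did. The lysozyme gene lys-4, for example, had 2311, 1158, 1938 and 2170 CPM at 24 h and 3412, 3392, 7229 and 3268 CPM at 0 h, and it was at -0.82 (FDR = 0.0965) without that library and at -1.01 (FDR = 0.0594) without replicate 2 at 24 h.

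A further set of falls came from replicate 4 at 0 h. In 24 of the 451 genes that fell, that library was more than 4 times each other 0 h library, against 1 gene for replicate 3 and none for replicates 1 and 2. They included eggshell and oocyte genes. The yolk receptor gene rme-2 had 0.609, 0.530, 1.87 and 0.472 CPM at 24 h and 1.90, 2.78, 1.29 and 44.1 CPM at 0 h, and the eggshell chitin-binding gene cbd-1 had 0.366, 0, 0.226 and 0.189 CPM at 24 h and 0, 2.33, 1.38 and 22.4 CPM at 0 h. Without that library rme-2 was at -1.15 (FDR = 0.293) and cbd-1 at -2.66 (FDR = 0.0868), and the lectin gene clec-87 was at -0.75 (FDR = 0.442), so none of the 3 remained called. What part germline RNA in that library has in the other falls was not tested. Over all genes 367 to 451 fell when any 1 replicate was left out.

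Of 13 intestine marker genes, all with counts, 5 fell and 1 rose, where 6.53% of all genes fell and 10.8% rose. The 7 not called were elt-2, elt-7, ges-1, ifc-2, erm-1, ifb-2 and vha-6, and 5 of the 13 were above 0 and 8 below. In 8 of the 13 every 24 h library was below every 0 h library (13% of all genes), and in 1 every 24 h library was above (15.8%). Among the 8 were erm-1, ifb-2 and vha-6, which fell short of a call. The di- and tripeptide transporter gene pept-1 had 162, 143, 164 and 189 CPM at 24 h and 554, 570, 486 and 601 CPM at 0 h (-1.75 ± 0.13, FDR = 2.94e-10), with a difference from TIR1 of -1.14 ± 0.19 (FDR = 0.000275). The microvillar actin gene act-5 had 121, 126, 143 and 161 CPM at 24 h and 290, 330, 267 and 271 CPM at 0 h (-1.07 ± 0.13, and -0.96 without replicate 2). Together the 13 markers summed to 2838 to 3549 CPM at 24 h and 8246 to 10185 CPM at 0 h, of which cpr-1 was the largest at 1329 to 1800 CPM at 24 h and 5169 to 6698 CPM at 0 h. The 1 marker that rose, the metallothionein gene mtl-2, had 29.7, 42.2, 39.1 and 36.3 CPM at 24 h and 7.92, 6.90, 21.6 and 10.3 CPM at 0 h (1.65 ± 0.60, FDR = 0.0399). Its call was lost in 11 of the 22 alternatives, among them those without replicate 2 (1.39, FDR = 0.168) or 1 (1.56, FDR = 0.115). In TIR1 mtl-2 rose more, by 4.45, with 94.8 ± 115 CPM at 24 h and 4.32 ± 1.54 CPM at 0 h (SD, n = 4 each), and the difference of -2.80 was called (FDR = 0.0431). Markers of other tissues were sparse, but the shares of some lists did not overlap between the times. Pharynx markers took 103 to 153 ppm of the counts outside vitellogenin genes at 24 h and 68.0 to 77.8 ppm at 0 h, sperm markers 9.25 to 20.4 ppm at 24 h and 2.36 to 7.11 ppm at 0 h, and coelomocyte and uterus markers 90.1 to 121 ppm at 24 h and 72.4 to 89.4 ppm at 0 h (exact permutation p = 0.0286 each, adjusted p = 0.0762 over 16 measures). Most pharynx counts came from pha-4, with 290 to 606 raw counts per library at 24 h and 387 to 589 at 0 h. The paper describes the pha-4 promoter as active in intestine. Most coelomocyte and uterus counts came from let-805 (205 to 469 at 24 h and 424 to 640 at 0 h). The called member of that list was cup-4 (40 to 90 and 10 to 37), so both lists rest on very few genes. Summed in CPM over tested members, coelomocyte and uterus markers overlapped, at 22.2 to 29.6 CPM at 24 h and 20.7 to 26.1 CPM at 0 h. Pharynx markers (25.3 to 38.1 and 18.7 to 22.7 CPM) and sperm markers (2.17 to 4.64 and 0.574 to 1.87 CPM) did not overlap in CPM either. In TIR1 the mean was 91.1 ppm at 24 h and 85.5 ppm at 0 h for pharynx markers (exact permutation p = 0.971) and 12.5 and 3.08 ppm for sperm markers (exact permutation p = 0.0286). The part of these other lists in the lower summed level of the intestine markers was not tested. Of 50 sperm genes 36 had no count in any of the 8 libraries, and 6 of 15 muscle, 3 of 12 pharynx and 5 of 14 neuron markers had enough counts to be tested.

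**Figure D4:**
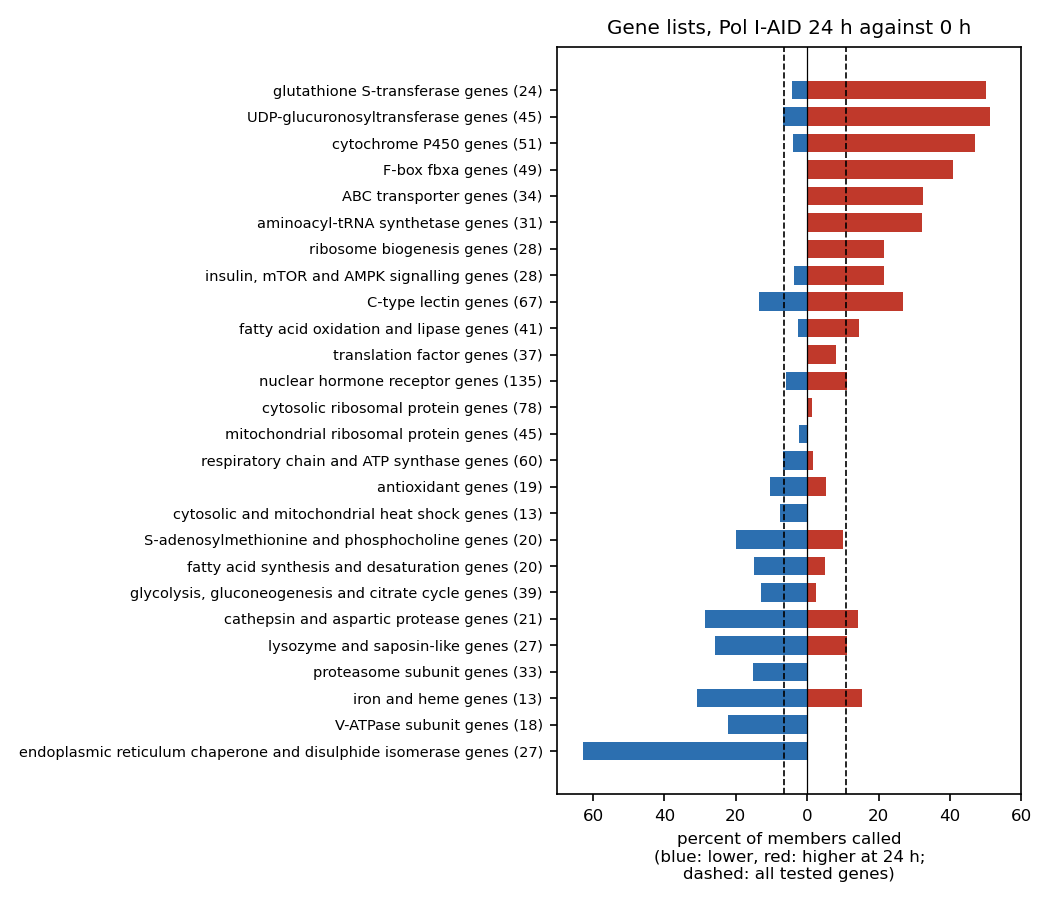
Percent of the tested members of each list (number in brackets, lists with at least 10) called lower (blue, left) or higher (red, right) at 24 h than at 0 h in Pol I-AID, with dashed lines at the shares over all tested genes, 6.53% lower and 10.8% higher. ER genes extend farthest to the left and the detoxification families farthest to the right.

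The vitellogenin genes themselves changed less than 2-fold. Levels are set against a scaled library size, so those of all genes need not add up to the nominal total. The gene vit-5 had 288908, 296036, 273804 and 264863 CPM at 24 h and 201757, 185560, 162409 and 175842 CPM at 0 h (0.63 ± 0.12), and vit-2 was at 0.43 ± 0.11. Both were close to TIR1, at 0.79 and 0.52. None of the 6 genes was called.

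The 12 h libraries place these changes in time, and the 12 h and 24 h contrasts share their 0 h libraries, so they are given side by side only. At 12 h, 394 genes (5.71%) were called higher and 167 (2.42%) lower than at 0 h, and from 12 to 24 h 179 (2.59%) were called higher and 138 (2%) lower. Some genes had covered most of the change by 12 h. The level of sec-61.A was 8848 CPM at 0 h, 2391 CPM at 12 h and 1096 CPM at 24 h on average, and that of pars-1 was 9.33, 109 and 155 CPM at the same times. A second group had not moved by 12 h. The mean level of elo-2 was 42.8 CPM at 0 h, 40.4 CPM at 12 h and 10 CPM at 24 h, that of sucl-2 was 155, 165 and 43.4 CPM, and that of aco-1 was 78.6, 82.5 and 31.3 CPM. For sucl-2, idh-1 and aco-1 the change from 12 to 24 h was called by itself, at -1.92, -1.23 and -1.39. The enoyl-CoA hydratase-like gene ech-7 changed direction, with 14.8 CPM at 0 h, 33.7 CPM at 12 h (1.19, called higher) and 6.76 CPM at 24 h (-1.13 against 0 h, called lower). In cpr-4, a cathepsin B-like gene, the lowest level came at 12 h, with 7925, 2056 and 3846 CPM in order of time. Its call at 24 h (-1.04) is at the 2-fold limit and was lost without replicate 2 (-0.89).

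**Figure D5:**
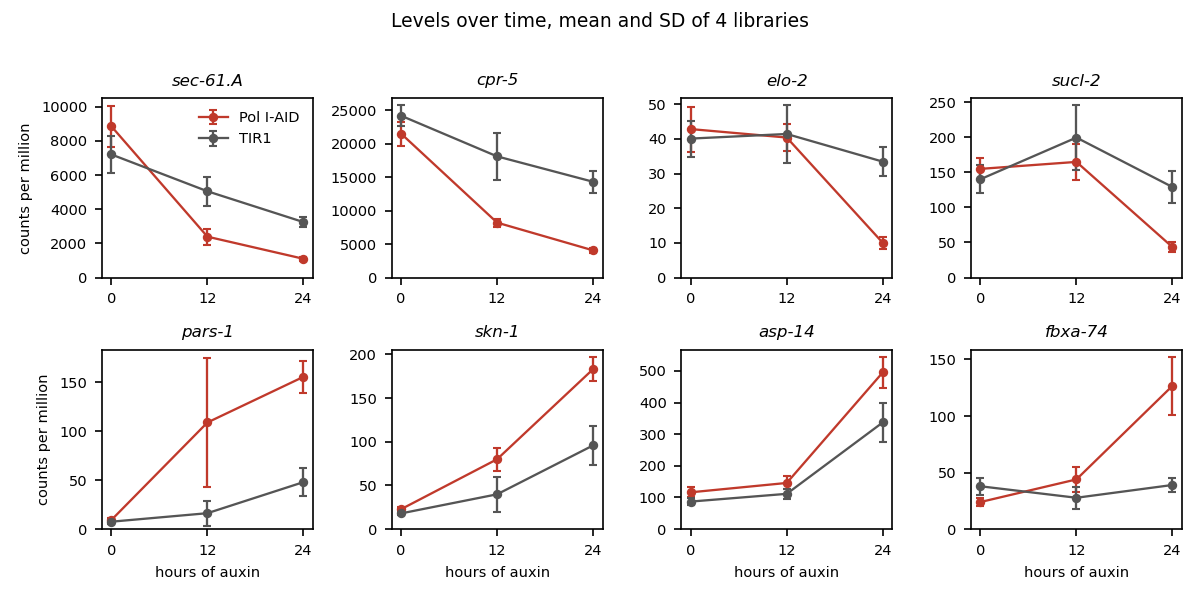
Mean CPM and SD of 4 libraries at 0, 12 and 24 h of auxin in Pol I-AID (red) and TIR1 (grey) for 8 of the genes described. In Pol I-AID elo-2 and sucl-2 stay near their 0 h level at 12 h (40.4 and 165 CPM) and fall by 24 h, while sec-61.A is already at 2391 CPM at 12 h.

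Over all tested genes, 452 (6.55%) rose and 218 (3.16%) fell in TIR1 over the same 24 h, in libraries the Pol I-AID comparison does not use. The genes that rose in Pol I-AID had a median of 0.97 in TIR1 and those that fell a median of -0.57. A difference between the strains' changes was called higher in Pol I-AID for 242 genes (3.51%) and lower for 164 (2.38%). Some TIR1 libraries behind this difference stood apart. Replicate 1 at 24 h held 4.68 M counts and replicate 3 at 0 h 3.18 M, against 18.2 to 24.7 M in the other TIR1 libraries of these times. Replicates 1 and 4 at 0 h had 3640 and 1476 ppm of collagen genes, against 86.3 to 335 ppm in the others, and replicate 1 at 0 h had 966 ppm of muscle markers, against 37.2 to 111 ppm. Replicate 1 is the only TIR1 replicate from the strain outcrossed 1 time. These counts of called differences leaned on single replicates, with 126 to 241 higher and 90 to 185 lower when 1 replicate was left out in all groups or in 1 group, the lowest without replicate 3, and without replicate 1 they were 139 and 107. Without replicate 2 they were 160 and 117, and 131 genes fell in TIR1. The gene W05H9.3 is one of the abundant genes that separated the strains, with 664, 661, 584 and 598 CPM at 24 h and 194, 236, 191 and 211 CPM at 0 h in Pol I-AID (1.59 ± 0.12), where TIR1 was at -0.09 (difference 1.69 ± 0.17, FDR = 3.43e-07). The gene drd-50 is an example of the shared rises, with 319, 340, 323 and 344 CPM at 24 h and 4.59, 5.56, 4.44 and 3.57 CPM at 0 h in Pol I-AID (6.19 ± 0.51) and a rise of 5.74 in TIR1 (difference 0.45 ± 0.62, FDR = 0.758). A difference that misses the threshold does not show that the strains changed alike.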

How the data were processed

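Libraries of intestinal mRNA were prepared with a SMART-Seq kit. Reads were trimmed (Trimmomatic 0.39) and aligned to ce10 (QuasR 1.42.1) by the authors, who tallied unique alignments over WS220 exons. Per the labels and values, the deposited tables hold unnormalized counts. The kit does not mark strand, so overlapping genes on opposite strands cannot be told apart. Low counts were mostly even, as when both mates of a pair are counted, so counting intervals cover counting error only.

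Here the counts of all 24 libraries (6 group means, 18 residual degrees of freedom, common dispersion 0.111) were fitted with edgeR 4.0.16 in R 4.3.3, with TMM normalization, the filterByExpr filter and the quasi-likelihood test. Genes were called at a Benjamini-Hochberg FDR under 0.05 and at least 2-fold, over 6903 genes. The same fit gave the change in TIR1 and the difference between strains. The SE was taken as the log2 fold change divided by √F, which is unreliable for changes near 0 in sparse genes. Levels are CPM on TMM-scaled library sizes. The difference of library measures was tested with two-sided exact permutation tests. Symbols were matched for 19182 of 20392 identifiers (94.1%). Promoters were not analysed here.

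The genes and lists were chosen with earlier results of these data known. Named genes are the 14 per direction with the largest change at 20 CPM or more and no overlap, the 8 most abundant called, up to 4 called members per list and direction at 5 CPM or more, and the 5 with the largest strain difference, of which a selection is described, and rpoa-2. Outside this rule, and named after their values were seen, are sec-61.B, sec-61.G, trap-2, trap-4, hsp-3, hsp-4, crt-1, enpl-1, xbp-1, ire-1, pek-1, iars-1, tars-1, lars-1, rpl-11.1, act-5, vit-2 and vit-5. Alternatives were another normalization, total counts, other filters, DESeq2 1.42.0, the 8 libraries alone, a replicate block, an exon length trend and leaving out replicates.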

Additional observations from a re-analysis of the deposited data

Results flagged for a closer look

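With 4 libraries in a group, a library was picked out when its gap to the nearest other, as a share of the range of the group, exceeded Dixon's 95% critical value. Of 192 groups of 4 so examined 16 stood out. Several of these share a library and some hold 0 in all other libraries of the group, so their number cannot be compared with chance. In replicate 4 at 0 h, germline and oocyte markers stood at 795 ppm of the counts outside vitellogenin genes, and with them rme-2 at 44.1 CPM, cbd-1 at 22.4 CPM and clec-87 at 71.5 CPM. At 24 h it was replicate 3, with 214 ppm and rme-2 at 1.87 CPM. In replicate 3 at 0 h, lysozyme and saposin-like genes summed to 10295 CPM, and lys-4 alone had 7229 CPM. The part of either library's composition in other results was not tested.

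Libraries also stood out in single genes that belong to neither set, namely asp-14 in replicate 4 at 0 h (139 CPM), nep-17 in replicate 4 at 24 h (753 CPM), sec-61.G in replicate 1 at 24 h (1.46 CPM), crt-1 in replicate 2 at 24 h (28.3 CPM) and ire-1 in replicate 3 at 0 h (6.83 CPM). The genes fmo-2 and rpl-11.1 each had 0.0613 CPM in replicate 3 at 0 h and 0 in the other 0 h libraries, and cyp-14A5 had 0.689 CPM in replicate 1 at 0 h.

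A difference between the 24 h changes of the strains was called for 40 of the genes described. On the log2 scale, Pol I-AID minus TIR1, it was positive for lys-3 (8.20), ugt-25 (3.88), cyp-14A5 (3.87), nog-1 (2.71), iars-1 (2.66), fbxa-74 (2.37), lars-1 (2.02), cpr-3 (2.0), ftn-1 (1.87), tars-1 (1.86), pgp-3 (1.76), fbxa-82 (1.75), W05H9.3 (1.69), clec-3 (1.60), lys-2 (1.35), ncl-1 (1.31) and akt-1 (1.15). It was negative for sec-61.B (-4.89), sec-61.G (-3.37), ugt-15 (-2.94), mtl-2 (-2.80), pcyt-1 (-2.51), trap-1 (-2.32), trap-3 (-2.23), cept-1 (-2.02), sec-61.A (-1.86), elo-2 (-1.82), sucl-2 (-1.71), cpr-5 (-1.65), fitm-2 (-1.63), calu-1 (-1.63), tram-1 (-1.59), cpr-1 (-1.47), pek-1 (-1.45), trap-2 (-1.37), hrg-7 (-1.27), crt-1 (-1.26), pas-3 (-1.16), pept-1 (-1.14) and aco-1 (-1.14). The lys-3 difference had an SE of 1.75 and rests on sparse TIR1 levels. These were 2.60 ± 4.55 CPM at 0 h and 0.735 ± 1.02 CPM at 24 h (SD), a change not called in TIR1 (-1.76, FDR = 0.366). Auxin and a day of age are common to both strains in this comparison, while unc-119(ed3) is given for TIR1 alone.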

How the results depend on the processing

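The counts of 748 higher and 451 lower genes were 751 and 445 with DESeq2's size factors, 732 and 482 without vitellogenin genes, 788 and 489 with DESeq2, 697 and 422 with the 8 libraries alone, 771 and 469 with the exon length trend removed and 647 to 768 and 367 to 451 with 1 replicate left out. With the replicate number as a block they were 746 and 440, and same-numbered libraries did not deviate together (correlations -0.016 to 0.060), so the numbers were not taken as pairs. Larger shifts came from total counts (747 lower), a filter of 10 counts in each of the 8 libraries (476 higher and 295 lower, of fewer genes tested) and FDR alone (872 lower). In TIR1 these settings gave 294 higher and 629 lower with total counts, 145 lower with the filter and 474 lower with FDR alone, and 131 to 216 lower with 1 replicate left out. The difference between strains was lower in Pol I-AID for 97 genes with total counts and 380 with no count filter. It was higher for 126 to 241 and lower for 90 to 185 with 1 replicate left out. The cause of these shifts was not tested. Of 80 called genes described, 68 stayed called in all 22 alternatives that gave them a value. The gene rpoa-2 changed sign without replicate 2 (-0.051, FDR = 0.975), and lay between -0.051 and 0.72 with 1 replicate left out. Depth limits genes of a few CPM, since 3 counts correspond on average to 0.199 CPM at 24 h and 0.134 CPM at 0 h.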
